A study of Homo sapiens with 2 samples.

Results

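The histone genes were taken by name: every gene symbol that starts with HIST and a cluster number followed by H, or with H2AF, H3F3 or H1F, and that has at least 1 record of a protein-coding RefSeq transcript. This gave 84 of the 26370 genes listed. Of these, 69 carry a HIST symbol (called clustered genes here) and 15 are variant histone genes with other symbols. HIST4H4, the only HIST4 gene, stands apart from the other HIST genes on chromosome 12, near the variant gene H2AFJ. RNA came from CHME3, a human line of immortalised cells whose label reads microglia, used at passages 4 to 6 and sequenced as 2 libraries. The untreated library came from cells given no compound, and the treated library from cells given muscarinic receptor antagonists, which block acetylcholine receptors, at 5 µg/ml. The labels call this dose the EC50 and name neither the compound nor the exposure time. With 1 library per condition there is no replicate check, so every difference below is between these libraries and no p-value is given.

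Histones are the proteins around which DNA is wrapped: H2A, H2B, H3 and H4 form the nucleosome core, and H1 binds the DNA between cores. The clustered class was set by symbol alone, so it can also hold genes of other kinds. Most clustered genes are replication-dependent, with mRNAs made mainly while DNA is copied. Most of those mRNAs end in a short stem-loop bound by the protein SLBP in place of a poly(A) tail, while variant genes mostly give spliced or polyadenylated mRNAs made throughout the cell cycle.

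The stem-loop is shown first because it was found in most clustered genes that could be searched and in few others. The 16-base motif, spelled as GG, any 2 bases, CTT, any base, T, any base, AG, any 2 bases and CC, was searched on the sense strand in the first 100 bases after the stop codon of GENCODE v29 transcripts (GRCh38, hg38). It was present in 31 of the 35 clustered genes with at least 30 annotated bases there (88.6%), in 1 of 14 such variant genes (7.1%) and in 34 of 18977 protein-coding genes in all (0.179%). The other 34 clustered genes could not be searched in these transcripts. Each line below is a 30-base stretch of the 3′ untranslated region, 5′ to 3′, with the motif in capitals and the hg38 position of the capitals, 1 gene for each of the 7 stem-loop sequences found and 3 more of the clustered genes with higher values.
HIST2H2AA3, chr1:149842223-149842238, minus strand: ctcaaaaGGCTCTTTTCAGAGCCacccacg
HIST3H2A, chr1:228457369-228457384, minus strand: acataaaGGCTCTTTTCAGAGCCacctact
HIST1H2AC, chr6:26124669-26124684, plus strand: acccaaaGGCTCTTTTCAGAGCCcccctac
HIST1H2BD, chr6:26158587-26158602, plus strand: tcccaaaGGCTCTTTTAAGAGCCacgcatg
HIST1H2BC, chr6:26123472-26123487, minus strand: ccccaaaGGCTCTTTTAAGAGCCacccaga
HIST1H2AG, chr6:27133515-27133530, plus strand: aaccaacGGCTCTTTTCAGGGCCacccacg
HIST1H3E, chr6:26225596-26225611, plus strand: atccaaaGGCTCTTCTCAGAGCCaaccact
HIST1H4H, chr6:26285131-26285146, minus strand: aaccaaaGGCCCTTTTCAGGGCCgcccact
HIST1H4I, chr6:27139654-27139669, plus strand: ctaaaaaGGCCCTTTTTAGGGCCcctaagc
H2AFX, chr11:119094898-119094913, minus strand: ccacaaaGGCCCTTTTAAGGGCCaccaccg
The sequence of HIST2H2AA3 was shared by 16 genes of the H2A, H2B and H3 types, and that of HIST1H2BD by 5 genes of the H2B and H3 types. Those of HIST1H4H and HIST1H4I were found in 5 and 3 genes, all of the H4 type. Those of HIST1H2AG, HIST1H3E and H2AFX were found in a single gene each. H2AFX, the variant whose protein is phosphorylated at DNA breaks, was the single variant gene with the motif, and its deposited record runs 1023 bases past it. A match is a description of the letters, not evidence of use.

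Summed FPKM (fragments scaled by transcript length and by sequencing depth, so levels are per length) was 1438 untreated and 1414 treated for the 15 variant genes, and 266.7 and 269.6 for the 69 clustered genes. The variant sum was thus 5.39 and 5.24 times the clustered sum. The floor used below is a mean over both libraries of 1 FPKM. It was reached by 10 of 15 variant genes (66.7%), 26 of 69 clustered genes (37.7%) and 11668 of all 26370 genes (44.2%). Of the clustered genes, 8 averaged at least 5 FPKM, 18 had a mean of 1 to 5, 23 lay above 0 and under 1, and 20 were listed at 0 in both libraries. The variant genes at 0 in both were H1FNT, H1FOO, H2AFB1 and H2AFB2, known from germ cells. The labels do not say whether RNA was selected by its poly(A) tail, so a low level of a clustered gene and a low capture of its RNA cannot be told apart.

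Estimated depth, from the bounds of the deposited values, was 6702732 fragments (untreated) and 7295668 (treated). The check of the label found 12 of 14 microglia marker genes below 1 FPKM in each library; 8 of them, AIF1, TMEM119, CX3CR1, ITGAM and PTPRC included, were listed at 0 throughout. Of 10 fibroblast and matrix genes 6 passed a mean of 1 FPKM, and COL3A1, LUM and DCN were listed at 0. In bulk RNA, fewer cells of a type and less RNA per cell cannot be told apart.

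The highest histone gene was the variant H2AFZ (chr4:99948087-99950355), which encodes H2A.Z, found at promoters. Its level was 380.5 FPKM untreated and 369.6 treated, a ratio of 0.971 with a 95% interval of 0.913 to 1.03. This interval, like all that follow, is an exact conditional binomial (Clopper-Pearson) interval on estimated fragments and covers counting error only. H2AFV (chr7:44826889-44848126), which encodes a second H2A.Z protein, was at 132.1 and 121.3 FPKM, giving a ratio of 0.918 (0.853 to 0.988). Of the 36 histone genes over the floor, 1 had its interval below 1, H2AFV, where 5.97% of all 11668 genes over the floor did. With fragments estimated from FPKM, length and depth for every gene, an alternative added after the values were seen, these were H2AFV and H1FX, against 6.25% of all genes. H2AFZ and H2AFV summed to 512.7 and 490.9 FPKM, giving a ratio of 0.958 (0.913 to 1.004).

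The linker histone variants came next. H1FX (chr3:129314771-129316277) was at 307.8 FPKM untreated and 287.5 treated, a ratio of 0.934 (0.863 to 1.01). H1F0 (chr22:37805107-37807436), known for its rise in cells that stop dividing, was at 186.6 and 183.9 FPKM, giving a ratio of 0.985 (0.935 to 1.04). Both intervals include 1, but that of H1FX depends on the fragment estimate. It rests on 1259 and 1263 fragments from the deposited bounds, while its FPKM, length and depth give 2783 and 2770, and an interval of 0.886 to 0.985. H1FX shares 7 exon bases with the opposite-strand gene H1FX-AS1, and the labels do not say whether strand was kept.

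The next group held H2A and H3 variants at like levels. H2AFX (chr11:119093875-119095467) was at 130.6 FPKM untreated and 136.9 treated, a ratio of 1.05 (0.971 to 1.13). H3F3B (chr17:75776434-75779935), 1 of the genes for H3.3, the H3 variant placed outside replication, was at 131.1 and 130.2 FPKM, giving a ratio of 0.993 (0.938 to 1.05). H2AFY (chr5:135334381-135399887), for macroH2A, a variant with a large extra domain known from the inactive X chromosome, was at 132.2 FPKM in both libraries. These 3 genes and H2AFV spanned 121.3 to 136.9 FPKM, and the intervals of H2AFX, H3F3B and H2AFY include 1.

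H2AFY is listed in 4 records, of which NM_004893 was near 0 in both libraries and the other 3 split its level. The record NM_138609, which differs from NM_001040158 by 94 bases of its own against 100, was at 38.1 FPKM untreated and 32.3 treated, or 28.8% and 24.5% of the gene, with a ratio of 0.850 (0.742 to 0.975). NM_001040158 was at 65.9 and 68.6 FPKM and NM_138610 at 28.2 and 31.3 FPKM. The records other than NM_138609 summed to 94.1 and 99.9 FPKM, giving a ratio of 1.06 (0.978 to 1.15). NM_138609 was thus lower in the treated library and the gene's sum was level. The others together were higher with an interval that includes 1. The interval of NM_138609 leaves out 1 with 448 and 408 fragments from FPKM, length and depth, and depends on that estimate. The deposited bounds of NM_138609 overlap, at 33.2 to 43.0 FPKM untreated and 28.0 to 36.7 treated. H2AFY shares exon bases with C5orf66 on the opposite strand. H2AFY2 (chr10:70052601-70112284), the second macroH2A gene, was at 20.8 and 22.9 FPKM, giving a ratio of 1.10 (0.927 to 1.31).

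**Figure D1:**
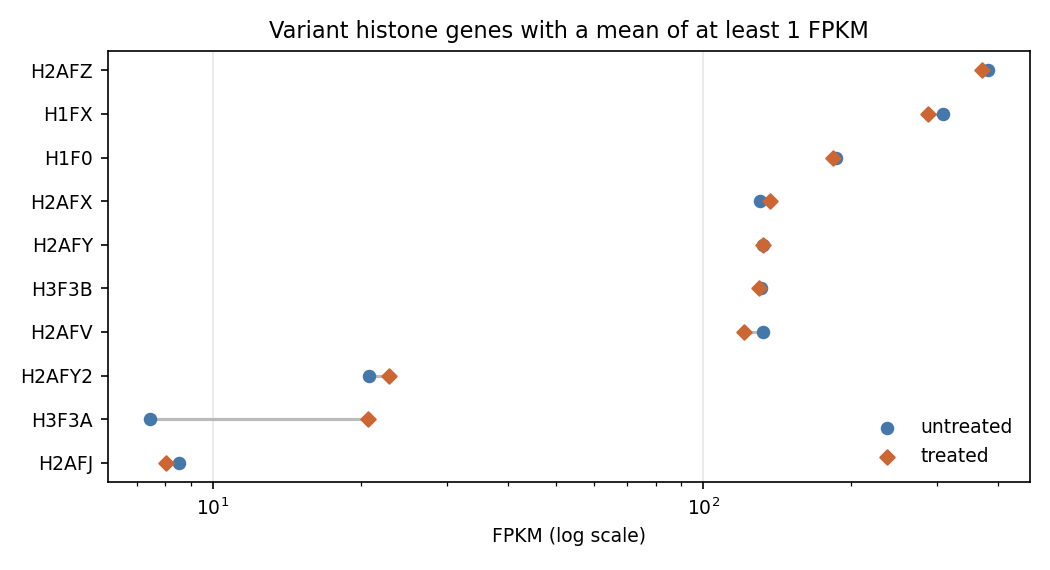
FPKM (log axis) of the 10 variant histone genes over the floor of 1 FPKM, with a circle for the untreated and a diamond for the treated library and a line joining them. Of the 10, 7 sit above 100 FPKM with the symbols nearly touching, and H3F3A, at 7.43 and 20.7 FPKM, has the widest gap.

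The variant over the floor with the lowest mean was H2AFJ (chr12:14774336-14778002), an H2A variant gene, at 8.52 FPKM untreated and 8.03 treated, a ratio of 0.943 (0.769 to 1.16). Its level was split unequally between records that differ only by a 314-base intron. The unspliced record was at 3.75 and 6.92 FPKM, and the 2-exon record at 4.76 and 1.11 FPKM. The unspliced share of the gene was 44.1% untreated and 86.2% treated. The ratio was 1.84 (1.43 to 2.42) for the unspliced record, from 88 and 176 fragments by FPKM, length and depth. For the 2-exon record it was 0.233 (0.147 to 0.366), from 102 and 26 fragments. The gene's sum thus stayed nearly level while the listed values of its records went in opposite directions. These values depend on how fragments were divided between overlapping records. H3F3C was under the floor, at 0.592 and 0.391 FPKM.

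H3F3A (chr1:226062707-226072002), the other gene for H3.3, was the variant gene with the largest difference. It was listed at 7.43 FPKM untreated and 20.7 treated, a ratio of 2.79 (1.64 to 4.67) from about 21 and 65 fragments by its bounds. It was the single histone gene whose interval lay above 1, where 6.45% of all genes had such an interval. Its exons are shared with a record named for the pseudogene H3F3AP4, which lies on 1042 of the 1062 bases of H3F3A, so that 20 bases at the 5′ end (chr1:226062707-226062726) belong to H3F3A alone. That chromosome 1 record was at 229.7 FPKM untreated and 209.9 treated, a ratio of 0.914 (0.847 to 0.987). This interval rests on 1361 and 1310 fragments from FPKM, length and depth, not on bounds as for H3F3A, and depends on that estimate. The deposited bounds of the H3F3AP4 record overlap, at 213.6 to 245.7 FPKM untreated and 194.9 to 224.9 treated. The listed FPKM of the records of this locus thus went in opposite directions.

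Summed over the chromosome 1 locus, H3F3A and H3F3AP4 were at 237.1 FPKM untreated and 230.6 treated, a ratio of 0.973 (0.903 to 1.05). The log2 ratio of (FPKM + 1) was 1.37 for H3F3A alone and -0.04 for the locus, so the direction of H3F3A depends on how fragments were divided between these records. The second H3F3AP4 record is a single exon at chr2:174719800-174720841 and was at 95.8 and 81.8 FPKM, giving a ratio of 0.853 (0.755 to 0.963). All 3 records summed to 332.9 and 312.4 FPKM, giving a ratio of 0.938 (0.881 to 0.9995). Intervals of the H3F3AP4 records and of these sums used fragments from FPKM, length and depth. The chromosome 1 locus and H3F3B together, both sources of H3.3, were at 368.2 and 360.8 FPKM, giving a ratio of 0.980 (0.937 to 1.02).

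**Figure D2:**
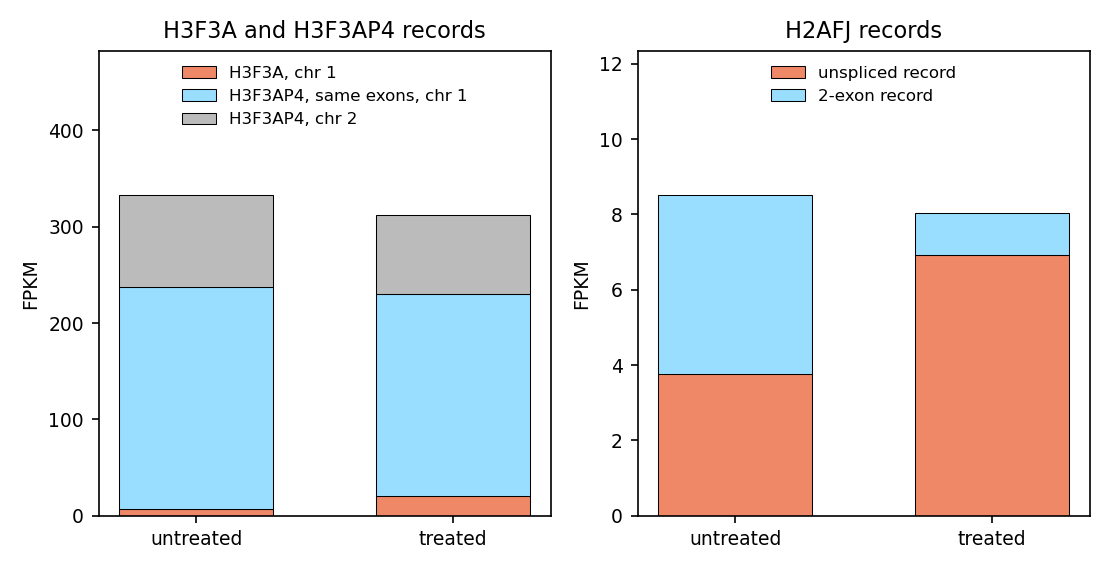
FPKM of single records stacked within each library, for H3F3A with the H3F3AP4 records (left) and for H2AFJ (right), with a separate axis for each. The column heights are alike (332.9 and 312.4 FPKM on the left, 8.52 and 8.03 on the right) while the lowest segment differs, from 7.43 to 20.7 FPKM for H3F3A and from 3.75 to 6.92 for the unspliced H2AFJ record.

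Among the clustered genes, HIST1H1C (chr6:26055740-26056471), for the linker histone H1.2, was highest, at 58.0 FPKM untreated and 59.7 treated, a ratio of 1.03 (0.850 to 1.25). HIST1H2BK (chr6:27138293-27146858), an H2B gene with a 2-exon record, was at 57.2 and 49.6 FPKM, giving a ratio of 0.866 (0.720 to 1.04). HIST2H2AA3, an H2A gene, was at 49.6 and 51.3 FPKM, giving a ratio of 1.03 (0.803 to 1.33). It is listed as a pair of identical records at neighbouring places on chromosome 1, each at 24.8 and 25.7 FPKM, so a copy cannot be told from the other. These 3 genes held 61.8% of the clustered FPKM untreated and 59.6% treated, and the 6 highest held 78.1% and 76.9%.

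HIST1H2BD (chr6:26158121-26171348), an H2B gene, was at 21.2 FPKM untreated and 27.3 treated, a ratio of 1.29 (0.931 to 1.77). It has a short record that holds the stem-loop, at 9.92 and 13.4 FPKM, and a 2-exon record that ends elsewhere and lacks it, at 11.3 and 13.9 FPKM. Both forms were listed at like levels and both were higher in the treated library, with ratios of 1.35 (0.736 to 2.42) and 1.23 (0.822 to 1.79). These records start at the same base, so their values depend on how fragments were divided between them. HIST3H2A (chr1:228457364-228457859), an H2A gene, was at 14.0 and 9.58 FPKM, giving a ratio of 0.687 (0.376 to 1.24), the lowest among clustered genes with at least 20 fragments. HIST1H2AC, an H2A gene, was at 8.27 and 9.77 FPKM, and the H2B genes HIST1H2BC and HIST1H2BJ at 6.53 and 6.40 and at 5.06 and 5.95 FPKM. The intervals of all of these include 1.

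The rest of the 12 highest clustered genes were low. HIST1H2BH, an H2B gene, was at 2.503 FPKM untreated and 5.62 treated, from 4 and 10 fragments. HIST2H4A and HIST2H4B, H4 genes with identical coding sequences, were each listed at 3.56 and 2.87 FPKM, and HIST2H2AC, an H2A gene, at 2.98 and 3.21 FPKM. Record structure also differed among the clustered genes: 5 of 72 records were spliced or longer than 1000 bases, and 4 of these 5 reached a mean of 1 FPKM, against 24 of the 67 short single-exon records.

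**Figure D3:**
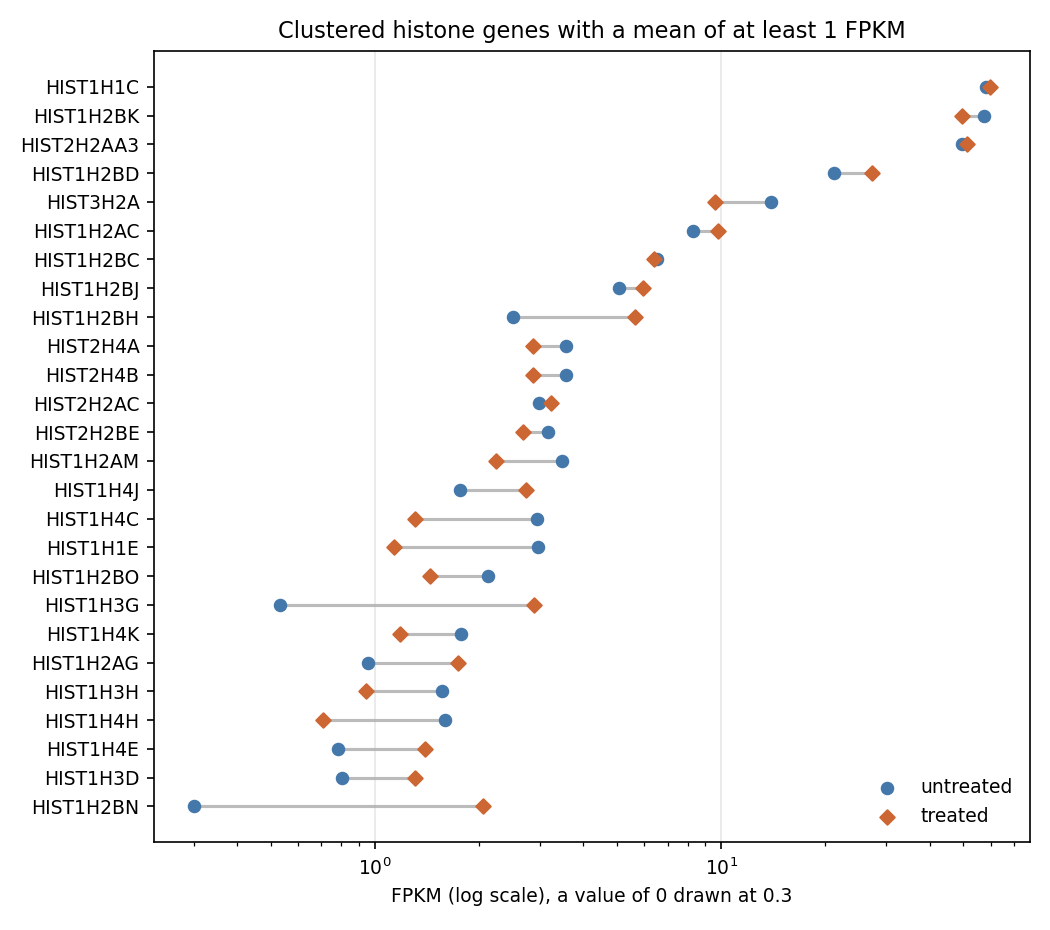
FPKM (log axis) of the 26 clustered histone genes over the floor of 1 FPKM, with circles for the untreated and diamonds for the treated library; a value of 0 is drawn at 0.3. Of the 26, 3 genes stand near 50 to 60 FPKM, and the gaps between the libraries widen toward the foot of the plot, where values rest on few fragments.

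By histone type, clustered genes summed to 62.2 FPKM untreated and 61.7 treated for H1 (2 of 6 genes over the floor of 1 FPKM), 80.3 and 81.3 for H2A (6 of 16) and 100.2 and 102.1 for H2B (8 of 18). The sums were 6.37 and 10.2 for H3 (3 of 14), a ratio of 1.60 (0.845 to 3.26) from about 16 and 26 fragments. For H4 (7 of 15) they were 17.6 and 14.4, a ratio of 0.816 (0.430 to 1.51). All 5 type ratios had intervals that include 1. The variant genes' share of the FPKM of their type was 88.8% and 88.4% for H1, 90.9% and 90.7% for H2A, and 95.6% and 93.7% for H3, or 98.3% and 97.3% for H3 with the chromosome 1 record of H3F3AP4 added.

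Clustered H2A and H2B genes often stand head to head, with a shared stretch between their starts. There were 12 such pairs within 1000 bases of each other, with gaps of 223 to 346 bases (median 266). Both genes reached the floor in 4 pairs, the H2A gene alone in 1, the H2B gene alone in 2 and neither in 5. The pair with the H2A gene alone was HIST3H2A and HIST3H2BB, the latter listed at 0 in both libraries, which allows up to 1.52 FPKM untreated and 1.55 treated (the level of 3 fragments). HIST1H2BK, at 57.2 and 49.6 FPKM, faces HIST1H2AH, at 0.506 and 0 FPKM. Their records are unlike, with 839 bases in 2 exons for HIST1H2BK and 481 bases in a single exon for HIST1H2AH. Here too, a low level and a low capture of the RNA cannot be told apart. HIST1H2AC and HIST1H2BC were both measured, at 8.27 and 9.77 and at 6.53 and 6.40 FPKM. The partner genes were chosen after their values were seen.

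The stretches between these starts, as far as a promoter window of 250 bases reaches, are given below to show what an unequal and an equal pair hold. They are from the RefSeq promoters on GRCh38.p14, 5′ to 3′ on the strand of the gene named, with capitals for CCAAT, the box bound by NF-Y, and TATAAA, the TATA box, on either strand.
HIST3H2A, chr1:228457874-228458106, minus strand: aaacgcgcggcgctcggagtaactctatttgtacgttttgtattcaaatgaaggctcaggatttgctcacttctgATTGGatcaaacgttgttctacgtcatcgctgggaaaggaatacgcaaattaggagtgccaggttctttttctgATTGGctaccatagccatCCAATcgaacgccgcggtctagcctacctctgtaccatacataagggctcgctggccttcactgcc
HIST1H2BK, chr6:27146859-27147081, minus strand: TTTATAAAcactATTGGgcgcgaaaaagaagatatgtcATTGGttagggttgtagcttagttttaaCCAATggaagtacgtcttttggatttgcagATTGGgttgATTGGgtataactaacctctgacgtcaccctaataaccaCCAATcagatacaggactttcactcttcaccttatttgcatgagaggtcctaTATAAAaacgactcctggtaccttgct
HIST1H2AC, chr6:26123922-26124144, plus strand: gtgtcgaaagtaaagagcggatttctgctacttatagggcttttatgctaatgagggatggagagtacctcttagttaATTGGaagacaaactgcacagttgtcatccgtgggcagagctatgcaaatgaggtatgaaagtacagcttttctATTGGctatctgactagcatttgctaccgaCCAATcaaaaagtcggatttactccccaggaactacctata
The stretch of HIST3H2A holds 3 CCAAT and 0 TATAAA matches, that of HIST1H2BK 6 and 3 (of which an overlapping pair is 1 run read on both strands), and that of HIST1H2AC 3 and 0. The unequal HIST3H2A pair and the equal HIST1H2AC pair thus had the same counts in the bases printed. These are 233 of the 247 bases between the starts for the HIST3H2A pair and 223 of 240 for the HIST1H2AC pair. In the 250 bases before the start, CCAAT was found in 54 of 64 clustered genes with a promoter in that table (84.4%). It was found in 11 of 13 variant genes (84.6%) and in 37.0% of all 27305 genes with a promoter there. TATAAA was found in 43 of 64 (67.2%), 4 of 13 (30.8%) and 13.0%. Either strand was counted, so a motif between the starts of a head-to-head pair can count for both genes. These matches are a description, and no match says only that these letters are not in the window.

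**Figure D4:**
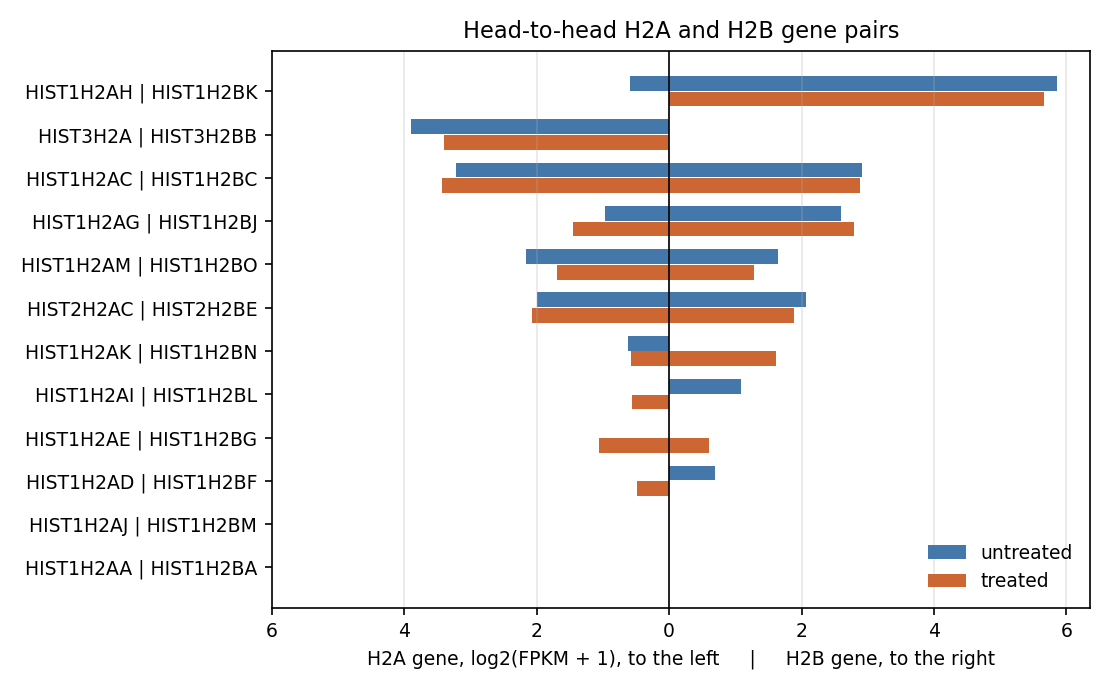
The 12 head-to-head pairs, with log2(FPKM + 1) of the H2A gene drawn to the left and of the H2B gene to the right, and a bar for each library. Bars on both sides mark pairs such as HIST1H2AC and HIST1H2BC, while the HIST1H2BK and HIST3H2A pairs have long bars on 1 side in both libraries.

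Between the libraries, the median log2 ratio of (FPKM + 1), treated over untreated, was 0.01 over the 26 clustered genes over the floor of 1 FPKM (13 higher, 13 lower, range -0.89 to 1.61) and -0.02 over the 10 variant genes (4 higher, 6 lower, range -0.12 to 1.37). Over all 11668 genes it was 0.00, with quartiles at -0.10 and 0.11. The clustered sum had a ratio of 1.01 (0.920 to 1.11) and the variant sum 0.983 (0.961 to 1.01). With the chromosome 1 record of H3F3AP4 added, the variant sum went from 1668 to 1623 FPKM, giving a ratio of 0.973 (0.952 to 0.995), which leaves out 1. The intervals of these sums used fragments from FPKM, length and depth, so they depend on that estimate.

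At a size of 1.5-fold on that scale, 4 of the 36 histone genes were higher in the treated library, H3F3A, HIST1H2BH, HIST1H2BN and HIST1H3G, against 1.2% of all genes. Lower were 3 of 36, HIST1H1E, HIST1H4C and HIST1H4H, against 1.03%. The 6 clustered genes among these rested on 3 to 17 fragments over both libraries, and all of their intervals include 1. HIST1H3G, an H3 gene, was at 0.532 FPKM untreated and 2.88 treated, from 1 and 6 fragments, a ratio of 5.42 (0.657 to 249.1). HIST1H2BN, an H2B gene, was at 0 and 2.05 FPKM, from 0 and 4 fragments. Its treated value was 1.33 times the level of 3 untreated fragments, a figure that leaves out counting error. The interval of its ratio starts at 0.660 and has no upper limit. HIST1H1E, for the linker histone H1.4, was at 2.96 and 1.13 FPKM, from 12 and 5 fragments.

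At 2-fold, 3 of 36 were higher, H3F3A, HIST1H2BN and HIST1H3G, against 0.351% of all genes, and 0 lower, against 0.309%. The median number of fragments over both libraries was 10 for the 26 clustered genes, 2754 for the 10 variant genes and 421 for all genes. Among the 19 histone genes with at least 20 fragments, 1 passed 1.5-fold in either direction, H3F3A, against 1.32% of 11419 genes. The 9 clustered genes among them had a median log2 ratio of 0.04 and a range of -0.50 to 0.35. The clustered genes with wide differences are thus those with few fragments, where this depth cannot show a difference.

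**Figure D5:**
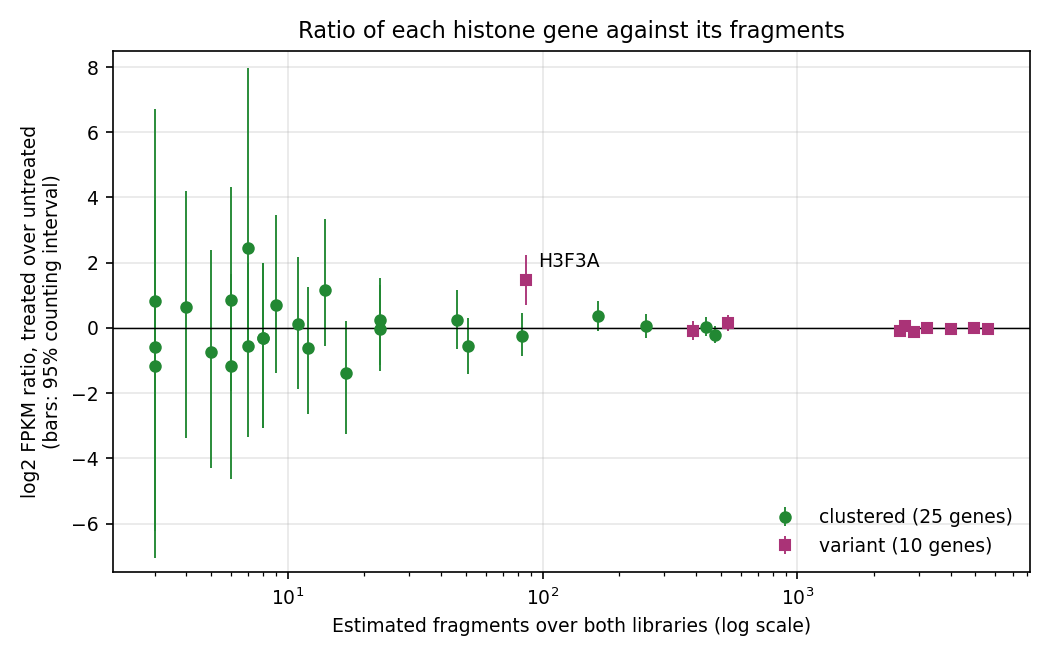
log2 FPKM ratio, treated over untreated, of 35 histone genes over the floor of 1 FPKM, with values above 0 in both libraries (25 clustered, 10 variant) against their estimated fragments (log axis), with 95% counting intervals. Intervals narrow to the right, and H3F3A is the labelled point above 0 whose bar does not cross it.

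Genes that make, process and place histones were described from lists. At 1.5-fold, 0 genes passed in either direction in each list. Of 11 genes of histone transcription, 4 were higher and 7 lower, with a median log2 ratio of -0.03 and 1 interval above 1; NPAT, the activator of clustered genes, was at 6.19 FPKM untreated and 6.75 treated, and CCNE2, a cyclin that works with CDK2, at 12.4 and 10.4. Of 20 genes of histone mRNA processing and decay, 13 were higher and 7 lower (median 0.04), with the intervals of 2 above 1 and of 1 below. SLBP, which binds the stem-loop printed above, was at 58.9 and 51.5 FPKM, giving a ratio of 0.874 (0.791 to 0.966). ZNF473, a zinc finger protein of the processing complex, was at 3.22 and 4.52 FPKM, giving a ratio of 1.41 (1.09 to 1.83). Both intervals leave out 1, as do those of 12.4% of all genes.

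Of 20 chaperone genes for H3 and H4, 11 were higher and 9 lower (median 0.03), 1 interval lay above 1 and 2 below, with HIRA, which places H3.3, at 8.16 FPKM untreated and 9.64 treated. Of 17 chaperone and exchange genes for H2A and H2B, 9 were higher and 8 lower (median 0.00). The intervals of 4 lay above 1 and of 4 below 1, where 12.4% of all genes had an interval that left out 1. Intervals narrow with more fragments, so these shares are not like for like. NCL, with its interval above 1, had 5500 and 6345 fragments, and NAP1L1, with its interval below 1, 4609 and 4570. The median of all genes over the floor was 421 over both libraries. RUVBL2, an ATPase of the complexes that exchange H2A.Z, was at 102.4 and 125.6 FPKM, giving a ratio of 1.23 (1.12 to 1.34), and ACTR6, another subunit, at 14.0 and 11.4 FPKM. CENPA, the centromeric H3 variant outside the name rule, was at 34.7 and 31.4 FPKM, giving a ratio of 0.905 (0.765 to 1.07). Of 20 S phase genes, 10 were higher and 10 lower (median 0.01), 1 interval lay above 1 and 3 below, with POLA1, a subunit of DNA polymerase alpha, at 11.5 and 13.9 FPKM and CDC6, a replication licensing factor, at 49.1 and 43.4 FPKM.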

How the data were processed

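RNA of untreated and of treated CHME3 cells was sequenced as 1 library per condition. Samples were grouped by their treatment label. Per the labels' protocols, total RNA was made into TruSeq libraries. The build hg38 and the tools TopHat and Cuffdiff are named, per the submitters' processing notes; versions, strand and poly(A) selection are not given in the sources used here. The FPKM values per RefSeq transcript, with lower and upper bounds, were deposited by the authors; the authors' files also hold a score, which was not used. FPKM was summed per gene, and log2 ratios used (FPKM + 1), which understates ratios of low genes. Genes entered with a mean of at least 1 FPKM. Fragments were recovered from the bounds as the square of 2 × FPKM over the upper half-width. Of values with 1 record, 22.0% untreated and 22.3% treated were whole within 0.01, so they are estimates. For genes with several records, for the single records of such genes and for sums they came from FPKM, length and depth. Bounds are wider where records overlap, as for H3F3A, so fragments are lower there. Intervals are 95% exact conditional binomial (scipy 1.17.1) and cover counting error only, as PCR copies are not independent molecules. Intervals were tested on simulated data for treated against untreated, with fragments drawn at random: they held the true fold for 95.4% of 11458 unchanged genes, and for 94.0%, 90.0%, 94.0% and 96.0% of 50 genes at each true fold of 0.25, 1.5, 2.5 and 4. The simulated fragments were known, so this checks the interval formula only, not the estimate of fragments or the division between overlapping records. Stem-loops came from GENCODE v29, and promoters from RefSeq for 77 of 84 genes. GENCODE and the deposited files give HIST2H4A and HIST2H4B each other's place, so 82 of 84 genes overlap the GENCODE gene of the same name. The genes named are variants over 1 FPKM, the 12 highest clustered genes, those with the largest ratios among clustered genes with at least 20 fragments, those at 2-fold, clustered genes with several records, H3F3AP4, and the leading genes of each list. Others were chosen after their values were seen. The members and lists were chosen with earlier results of these data known.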

Additional observations from a re-analysis of the deposited data

How the results depend on the processing

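The medians and sums of clustered and of variant genes kept within their spread under each of the alternatives run: over up to 12 settings the median log2 ratio lay between -0.03 and 0.04 for clustered and between -0.03 and 0.02 for variant genes, and over 8 settings the ratio of summed FPKM lay between 0.964 and 1.01 and between 0.967 and 0.988. The log2 ratio of H3F3A, 1.37, stayed between 1.05 and 1.47 except when summed with H3F3AP4, which gave -0.0915 with both records and -0.0396 with the chromosome 1 record alone, an alternative chosen after seeing the data. The counts of histone genes 1.5-fold higher (4) and lower (3) became 8 and 5 with 0.1 FPKM added in place of 1, 1 and 0 with 5 FPKM added, 10 and 8 with no floor, 1 and 0 with a floor of 5 FPKM, 1 and 1 with depth-scaled fragments (no length scaling) as the measure, and 1 and 0 with at least 20 fragments. With fragments from FPKM, length and depth for every gene, added after seeing the data, the interval of H1FX (0.886 to 0.985) left out 1 and that of H3F3A was 1.97 to 4.00; no other histone gene over 1 FPKM changed its call. H3F3A had no value where copies were left out. No paired analysis was possible because each condition has 1 library. Depth limits 17 of the 36 histone genes, which rest on fewer than 20 fragments.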
